A study of Homo sapiens with 102 samples.

Results

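The 10 genes described here were MYC and 9 genes of the nucleolus, and each was found by its Ensembl identifier as a row of a table of 24965 genes by 102 libraries. MYC is a transcription factor that acts as a dimer with MAX and is known for driving growth genes, those for ribosomes among them. Ribosomal RNA is transcribed in the nucleolus, where small nucleolar ribonucleoproteins modify it, and assembly factors fold it into ribosomal subunits. NPM1 and NCL code for nucleophosmin and nucleolin, the abundant chaperones of that compartment. FBL, NOP56 and NOP58 code for core proteins of the box C/D particles, which add methyl groups to ribosomal RNA, with fibrillarin, the product of FBL, as the methyltransferase. DKC1, NHP2, NOP10 and GAR1 code for the core of the box H/ACA particles, which convert uridine to pseudouridine, with dyskerin, the product of DKC1, as the enzyme.

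The libraries came from Combi-Seq, in which single cells share picolitre droplets with a pair of drugs and with barcode pieces that name them. The cells were K562, an established myelogenous leukaemia line carrying the BCR-ABL fusion, incubated for 12 h. Each of 2 screens, labelled dT and Bio, held in 3 runs all 16 ordered pairs of imatinib, trametinib, YM115 and the solvent DMSO. Imatinib blocks the kinase made by BCR-ABL, and trametinib is an inhibitor of the MEK kinases. YM115 is spelled as in the labels, whereas the study writes YM155 and names survivin as its target. Each screen also had 3 DMSO controls labelled without a drug pair, called separate DMSO controls below. The sample titles do not say how these controls were handled. The screens differed in how the barcode pieces were assigned to the drugs, so barcoding mode and screen cannot be told apart. The order in a label is given below as first-listed and second-listed, since the labels do not settle which injection source each stood for. A library pools RNA of many cells, so fewer cells and less RNA per cell cannot be told apart.

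In-screen libraries held 127042 to 759756 counts over 1837 to 5110 genes in dT and 17882 to 780143 counts over 438 to 3849 genes in Bio. All 48 dT libraries and 44 of 48 Bio libraries had at least 1000 genes with a count and at most 15% mitochondrial counts, and only these passing libraries are used below unless stated. The 4 others were all 3 Bio libraries with imatinib in both positions and 1 with DMSO first-listed and trametinib second-listed. Separate DMSO controls stood apart, with 7410 to 10361 genes in dT and 5501 to 7058 in Bio from no more counts, and with up to 36.9% mitochondrial counts. Of the K562 markers, the fetal globin gene HBG2 had counts in every passing library, whereas KLF1, for an erythroid transcription factor, had them in 8 of 48 dT and 1 of 44 Bio libraries. Of the 13 measured markers of other cell types, KRT8 and KRT18 had counts in at least 50% of libraries of each screen. Among the lymphoid and leukocyte markers, CD3D had counts in 12 of 48 dT and 5 of 44 Bio libraries, and PTPRC in 9 and 3. CD3E and MS4A1 were at 0 in all passing libraries.

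The start regions of the genes were searched for CACGTG, the E-box to which MYC binds with MAX, because MYC and its nucleolar targets are examined together. The search covered 250 bases before to 50 bases after each RefSeq start (GRCh38.p14), and the motif equals its own reverse complement. Windows were at hand for 8 of the 10 genes, all but MYC and NOP58. Of these 8, FBL, GAR1 and NOP10 held the motif (37.5%), against 2396 of 27305 genes with a window (8.775%). The matches are shown 5′ to 3′ on the gene's strand with the motif in capitals.

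FBL, chr19:39846356-39846385, minus strand, motif from base 7 after the start: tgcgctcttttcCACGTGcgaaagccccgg

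GAR1, chr4:109815781-109815810, plus strand, motif from base 32 after the start: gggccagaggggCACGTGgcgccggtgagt

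NOP10, chr15:34343289-34343318, minus strand, motif from 170 bases before the start: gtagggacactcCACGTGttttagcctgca

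NOP10, chr15:34343130-34343159, minus strand, motif from 11 bases before the start: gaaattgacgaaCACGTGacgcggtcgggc

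These matches describe letters in a window and not binding. Of the 3 genes with a match, FBL was among the most often counted of the 10, and GAR1 and NOP10 were the least often counted.

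First, it was asked how often each gene was counted at all, since most genes of these libraries were not. Of the 19688 genes with any count in the passing dT libraries, 11.1% had one in at least 50% of them, and of the 15694 in Bio 5.89% did. In dT, NCL had a count in 93.8% of the 48 libraries (Wilson 95% interval 83.2 to 97.9%), FBL in 81.3%, NHP2 in 70.8% and MYC in 54.2% (40.3 to 67.4%). NOP56, DKC1, NPM1 and NOP58 were counted in 39.6%, 29.2%, 27.1% and 18.8% of dT libraries. NOP10 was counted in 6.25% and GAR1 in 2.08% (0.369 to 10.9%). Bio gave lower percents for every gene, with NCL at 77.3% of 44 libraries, FBL and NHP2 at 59.1% each, MYC at 40.9%, and GAR1 at 0 of 44 (upper bound 8.03%). NPM1, NOP56, DKC1, NOP58 and NOP10 were counted in 20.5%, 18.2%, 15.9%, 9.09% and 4.55% of Bio libraries. These intervals cover counting error only.

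**Figure D1:**
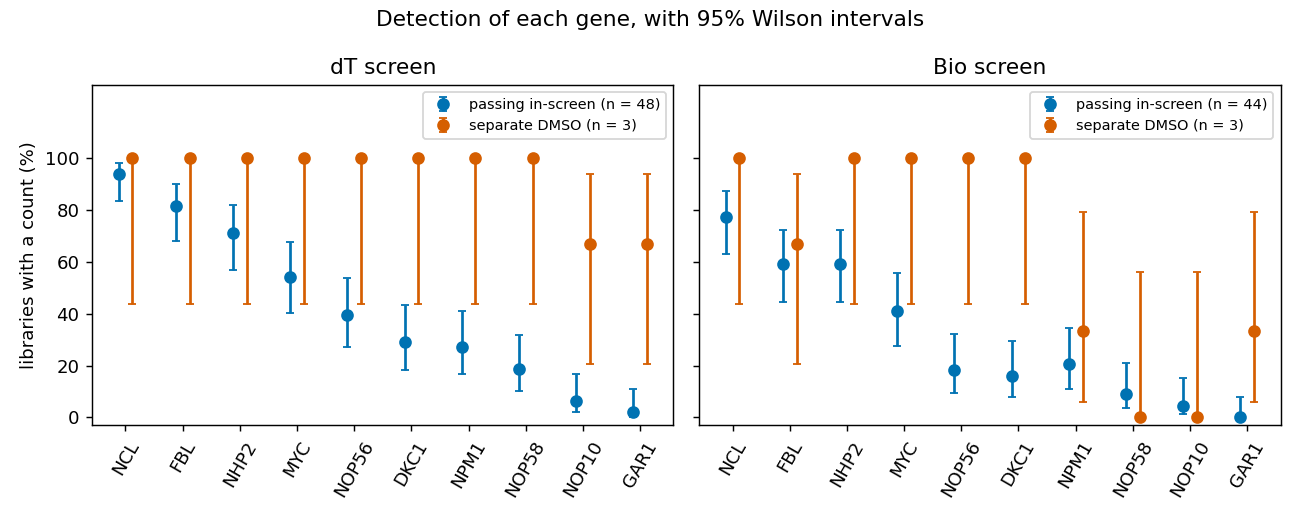
Percent of libraries with at least 1 count of each gene (vertical axis) in the dT (left) and Bio (right) screen, with 95% Wilson intervals. Blue points are passing in-screen libraries (n = 48 and 44) and orange points the 3 separate DMSO controls, in which 8 of the 10 genes were counted in all 3 libraries in dT and 5 in Bio.

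The separate controls counted more of the genes from similar or lower totals. Those of dT held 9, 9 and 10 of the 10 genes, whereas an in-screen dT library held 2 to 7 (median 4). Those of Bio held 5, 7 and 7, whereas a passing Bio library held 0 to 7 (median 3). Across passing libraries the number of the genes counted rose with the total count, with Spearman's rho of 0.56 over 48 dT libraries and 0.22 over 44 Bio libraries, as a description of libraries that share runs.

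Where a gene was counted, the level was uneven from library to library. NCL ranged from 0 to 2423 CPM (counts per 1000000 counts of the library) in dT with a median of 635, and from 0 to 3993 CPM in Bio with a median of 375. MYC ranged from 0 to 1343 CPM in dT around a median of 2.34, and from 0 to 2360 CPM in Bio around a median of 0. In both genes the highest libraries lay far above the median, and MYC had at least 50 counts in 11 dT libraries but exactly 1 count in 7. FBL averaged 165 ± 223 CPM (SD, n = 48) in dT and 223 ± 480 (n = 44) in Bio, so its SD exceeded its mean in both screens. The same held for NHP2 (22.1 ± 46.0 and 18.8 ± 47.7 CPM), NOP56 (27.4 ± 94.7 and 45.9 ± 222) and DKC1 (24.9 ± 60.4 and 12.0 ± 59.9). NPM1 ranged from 0 to 293 CPM in dT and from 0 to 923 CPM in Bio, with a median of 0 in both. A single library often carried most of a gene's counts. One Bio library, DMSO_Trametinib of run 2, held 98.5% of the Bio counts of NOP58, 1 dT library held 90.5% of those of NOP10, and all 14 dT counts of GAR1 came from 1 library.

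**Figure D2:**
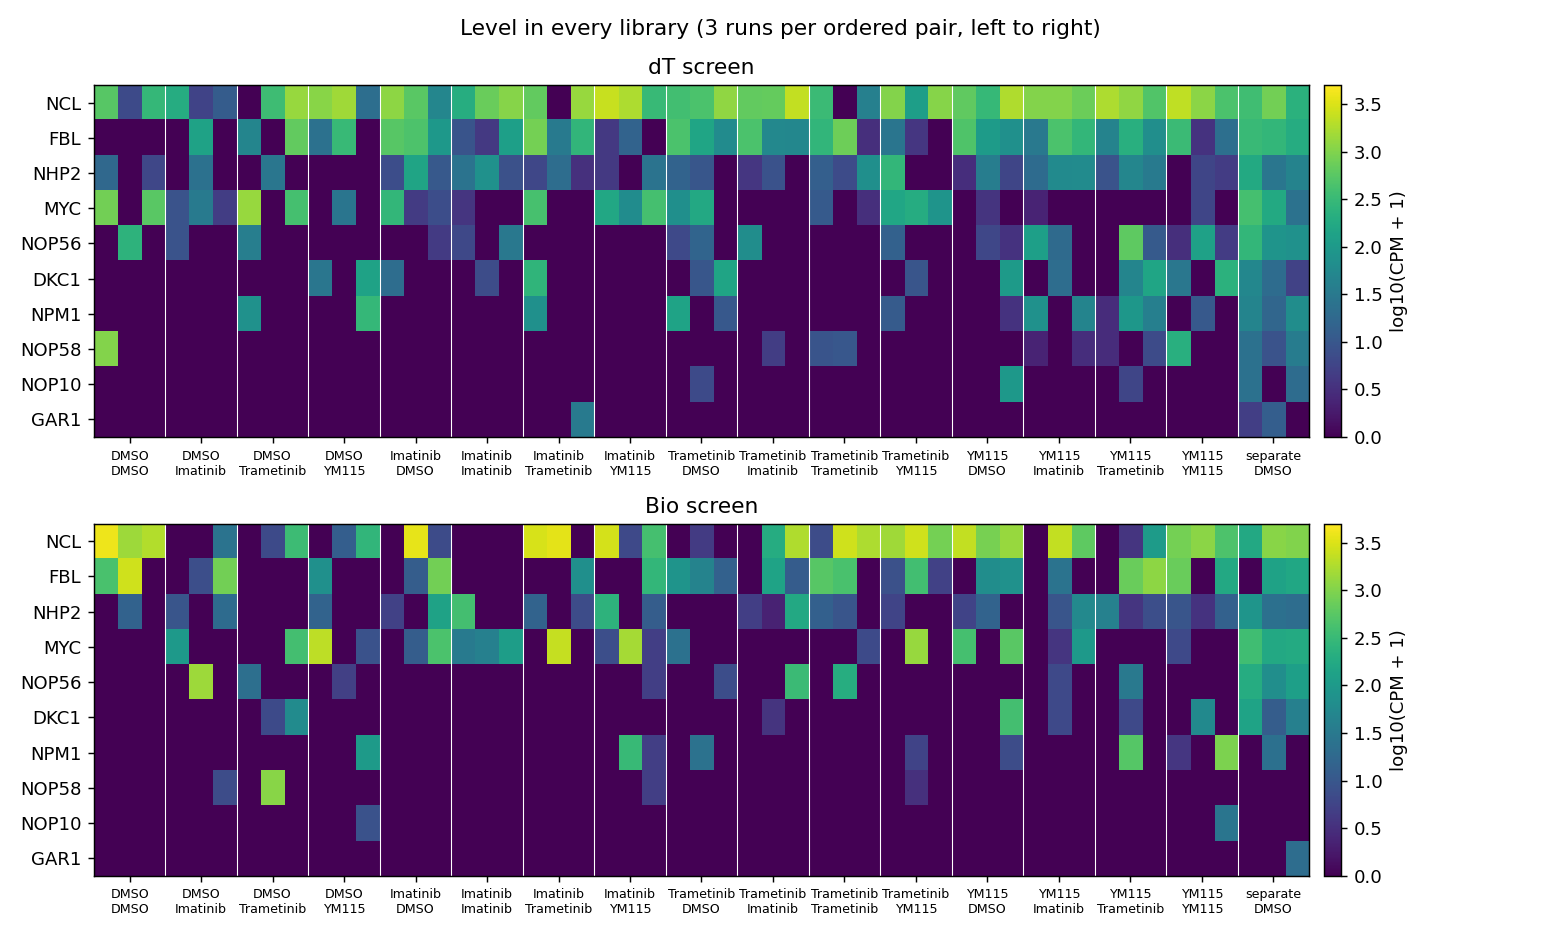
Level of each gene (one per line, colour as log10(CPM + 1)) in all 51 libraries of the dT (top) and Bio (bottom) screen, with 3 runs side by side for each ordered pair and for the separate DMSO controls at the right. NCL is bright in most dT columns, whereas NOP58, NOP10 and GAR1 are dark in nearly all in-screen columns of both screens; the Bio panel includes the 4 libraries that did not pass.

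Levels were set against each other per kilobase of exon (GENCODE release 29), with the 3 runs as the spread. In dT, NCL was highest at 119 ± 24.1 CPM per kb (SD, n = 3 runs), followed by FBL at 80.0 ± 28.9, MYC at 26.3 ± 18.3 and NHP2 at 16.1 ± 4.28. DKC1 came next, followed by NOP56, NOP58, NOP10 and NPM1 at 5.97 to 4.36 CPM per kb, and each of these 5 overlapped its neighbour in the list in its range over runs. FBL lay above MYC, and NHP2 above DKC1, in every run, whereas NCL overlapped FBL and MYC overlapped NHP2. In Bio the first 4 places had the same order, from NCL at 134 (105 to 155 over the runs) to NHP2 at 16.9 ± 12.8 CPM per kb, and of neighbours in that order only MYC and NHP2 did not overlap. The libraries were primed from poly-dT, and the study describes a protocol for 3′ end libraries. Counts of such libraries need not rise with exon length, so the order per kilobase depends on the division by length. In mean CPM of dT libraries without that division, NCL (764), FBL (165) and MYC (109) kept their order. NHP2 (22.1) then lay below NOP56 (27.4), NOP58 (26.8) and DKC1 (24.9), and NPM1 (17.9) lay above NOP10 (2.18). NHP2 is overlapped by RMND5B on the other strand, which had 1075 in-screen counts. Whether counting used strand is not given in the sources used here, so the level of NHP2 is uncertain. Box C/D and H/ACA RNAs lie in introns of NCL, NOP56, NOP58 and DKC1 and had no row in the table. Of 23 NPM1 pseudogenes in the table, the most often counted, NPM1P40, had 64 counts over 15 dT libraries, against 283 counts of NPM1 itself.

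Next, it was asked whether a drug, in either position, moved the genes. Of the 10 genes, 7 passed the low-count filter of the dT fit (all but NOP58, NOP10 and GAR1) and 3 that of the Bio fit (NCL, FBL and MYC). One of the 7 passed the test for YM115 in dT, which was NPM1, where 2.62% of the 3930 genes tested were called. None of the 7 passed for imatinib (2.88% of genes called) or trametinib (1.37%). None of the 3 passed in Bio for imatinib (2.34%), trametinib (1.94%) or YM115 (2.74%). By edgeR's unadjusted p under 0.05, NPM1 for trametinib and NCL for YM115 were the only other values among these 30. Under DESeq2 the count was 1 for imatinib in Bio, which was FBL, and 0 for the other comparisons with a count of 0. MYC itself was not called for any drug, with log2 fold changes in dT of -0.97 (SE 1.31) for imatinib, 0.25 (SE 1.45) for trametinib and -0.20 (SE 1.16) for YM115. These standard errors leave changes of several-fold undetectable at this depth.

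NPM1 was counted in 9 of 21 dT libraries with YM115 and in 4 of 27 without it. With YM115, NPM1 counts in runs 1, 2 and 3 were 1, 36 and 19 in YM115_Trametinib, 56, 0 and 22 in YM115_Imatinib, and 0, 0 and 43 in DMSO_YM115. The remaining counts with YM115 were 4 in Trametinib_YM115 run 1, 1 in YM115_DMSO run 3 and 4 in YM115_YM115 run 2. Without YM115, NPM1 had 50 and 4 counts in runs 1 and 3 of Trametinib_DMSO, 27 in Imatinib_Trametinib run 1 and 16 in DMSO_Trametinib run 1. All 4 libraries counted without YM115 held trametinib, and NPM1 was at 0 in every dT library that held neither of these drugs. The groups overlapped, since most libraries of both were at 0.

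The mean level of NPM1 in dT was 26.9 ± 66.3 CPM with YM115 and 10.8 ± 32.0 without it, and it was higher with YM115 in 2 of 3 runs. The fitted log2 fold change was 4.38 (SE 1.09), and the adjusted p was 0.0151 by the quasi-likelihood test of edgeR (Benjamini-Hochberg adjustment over all genes tested). On counts simulated for this comparison the test called about as many unchanged genes as changed ones, so any single call for YM115 in dT is weak, and the other comparisons were not simulated. The call was kept in 3 of 9 alternatives, whose adjusted p ranged from 0.0102 to 0.565. It was lost with no run block (0.318), without run 2 (0.423) and without run 3 (0.170), and NPM1 fell below the filter without run 1. A permutation of libraries within runs, added after these values were seen, gave a difference of 0.43 in mean log2 CPM (p = 0.343) and p = 0.0474 for the share of libraries with a count.

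In Bio, NPM1 lay below the filter, and its counts again lay mostly with YM115. It was counted in 8 of 21 libraries with the drug and in 1 of 23 without it, and the mean was higher with YM115 in all 3 runs. The largest values were 212 counts in YM115_YM115 run 3, 191 in YM115_Trametinib run 2 and 55 in Imatinib_YM115 run 2, whereas the single library without YM115 had 7. The means were 89.7 ± 231 and 1.03 ± 4.92 CPM. With no filter the adjusted p was 0.322, and the within-run permutation gave p = 0.145 for mean log2 CPM and p = 0.00744 for the share of libraries with a count. Libraries with YM115 were deeper, with a median of 390691 counts against 316995 in dT and 242985 against 175540 in Bio. With depth as a covariate the adjusted p was 0.0165 in dT and 0.0752 in Bio, where the log2 fold change was 4.22 (SE 1.49) and did not pass.

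**Figure D3:**
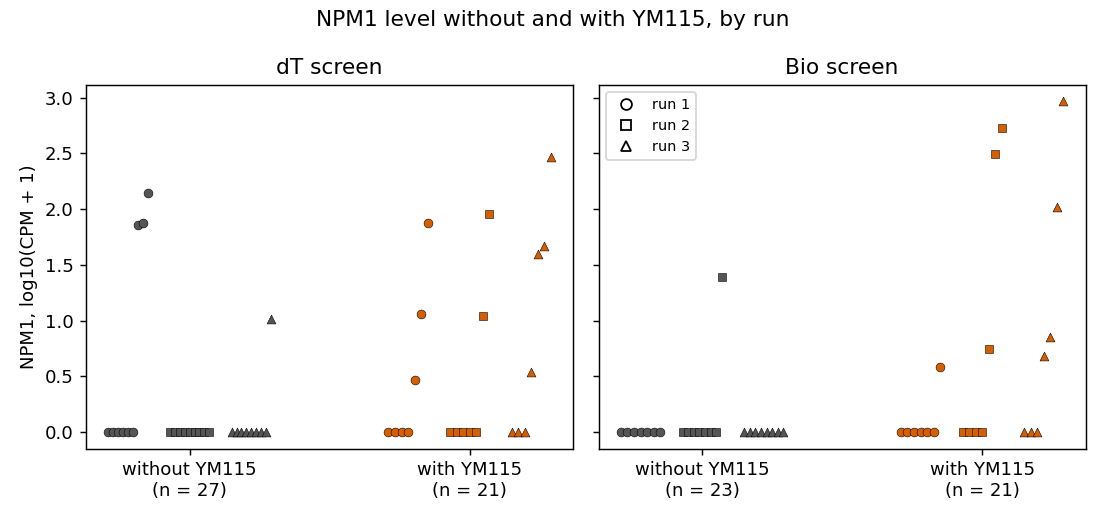
NPM1 level as log10(CPM + 1) in each passing in-screen library without (grey) and with (orange) YM115, in the dT (left) and Bio (right) screen, with 1 marker shape per run. Libraries above 0 number 4 of 27 and 9 of 21 in dT, and 1 of 23 and 8 of 21 in Bio, and the rest sit on the zero line.

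NCL was the most evenly measured of the genes and was counted in 21 of 21 dT libraries with YM115 and in 24 of 27 without it. It ranged from 20.5 to 2423 CPM with a median of 1030 with YM115, and from 0 to 2294 with a median of 383 without it. The groups overlapped over most of that range. The means were 1055 ± 673 and 538 ± 560 CPM, and the fold change on the log2 scale, 1.53 (SE 0.68), did not pass (adjusted p = 0.272). In Bio the NCL means were 883 ± 949 with YM115 and 1060 ± 1422 without it, with a log2 fold change of -0.28 (SE 1.07). For trametinib, NPM1 had a fitted log2 value of 2.73 (SE 1.05, unadjusted p = 0.0119, adjusted p = 0.209) in dT, and DKC1 2.33 (SE 1.31, adjusted p = 0.485). FBL in Bio had -3.63 (SE 1.83, adjusted p = 0.335) for imatinib.

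The drug effects were then compared between the screens in 1 fit. None of 7 genes differed for imatinib (5.84% of genes called), trametinib (4.59%) or YM115 (6.59%). At unadjusted p under 0.05 there were 1, 1 and 0, and under DESeq2 1, 1 and 0. NPM1 for YM115 had an adjusted p of 0.960, and its log2 difference between screens ran from -2.59 to 2.13 over the alternatives. Interactions between drugs likewise gave 0 of 7 calls in dT (9.77% of genes called) and 0 of 7 in Bio (14.0%), with 2 and 0 at unadjusted p under 0.05 and 0 under DESeq2. The smallest adjusted p in dT was 0.112, for FBL.

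In the dT libraries MYC was counted less often with YM115 first-listed, a contrast picked after the values were seen. With YM115 first-listed, MYC was counted in 3 of 12 libraries, never above 2 counts, and averaged 0.735 ± 1.54 CPM. With DMSO first-listed the 12 libraries ranged from 0 to 1343 CPM with a median of 17.1, with imatinib from 0 to 418 with a median of 4.91, and with trametinib from 0 to 193 with a median of 6.15. The means of those 3 groups were 268 ± 439, 112 ± 164 and 56.7 ± 75.6 CPM. All groups overlapped at 0, but no library with YM115 first-listed exceeded 4.95 CPM. These libraries were the deepest of the screen by first-listed drug, with a median of 433582 counts, against 194175 with DMSO, 338731 with imatinib and 356757 with trametinib.

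YM115 as the second-listed drug gave other values. In Imatinib_YM115 MYC had 53, 22 and 113 counts in runs 1 to 3, and in YM115_Imatinib 1, 0 and 0. In Trametinib_YM115 it had 59, 68 and 21 counts, and in YM115_Trametinib 0, 0 and 0. With DMSO as the partner, DMSO_YM115 had 0, 5 and 0 counts and YM115_DMSO 0, 1 and 0, so the orders did not separate there. Over the pairs with imatinib or trametinib, MYC was counted in 6 of 6 libraries with YM115 second-listed, at 62.1 to 403 CPM (mean 176 ± 122), and in 1 of 6 with YM115 first-listed, at 0 to 1.32 CPM (mean 0.219 ± 0.537).

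The joint test of first-listed against second-listed drugs called MYC in dT (adjusted p = 0.0048). That was 1 of 7 genes (14.3%), near the 10.7% of all genes called. The call was kept in 7 of 8 alternatives and was lost without run 3 (adjusted p = 0.0943). The YM115 term of that fit, examined after these values were seen, had a log2 coefficient of -4.05 (SE 1.05, adjusted p = 0.0234), where 3.99% of genes were called. As coded, the log2 difference between YM115 first-listed and second-listed is 2 times this coefficient. That call was kept in 4 of 8 alternatives, and the coefficient lay between -4.86 and -3.19 in all 8. The YM115 term was lost when genes had to be counted in 50% of libraries (adjusted p = 0.0617), without run 1 (adjusted p = 0.0531), without run 2 (0.0710) and without run 3 (0.187). An exact two-sided permutation within runs of the 9 libraries of each order, also chosen after the values were seen, gave a difference in mean log2 CPM of -3.98 (p = 0.00025, the smallest that 8000 arrangements allow). That value is the whole difference between orders, taken with a prior count of 2, so it is not on the scale of the coefficient. The terms of imatinib and trametinib called 0 of 7 genes in dT (4.66% and 3.92% of genes called), and none had an unadjusted p under 0.05 or a call by DESeq2. For the share of libraries with a count of MYC, 2 of 9 against 7 of 9, the exact p was 0.064.

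**Figure D4:**
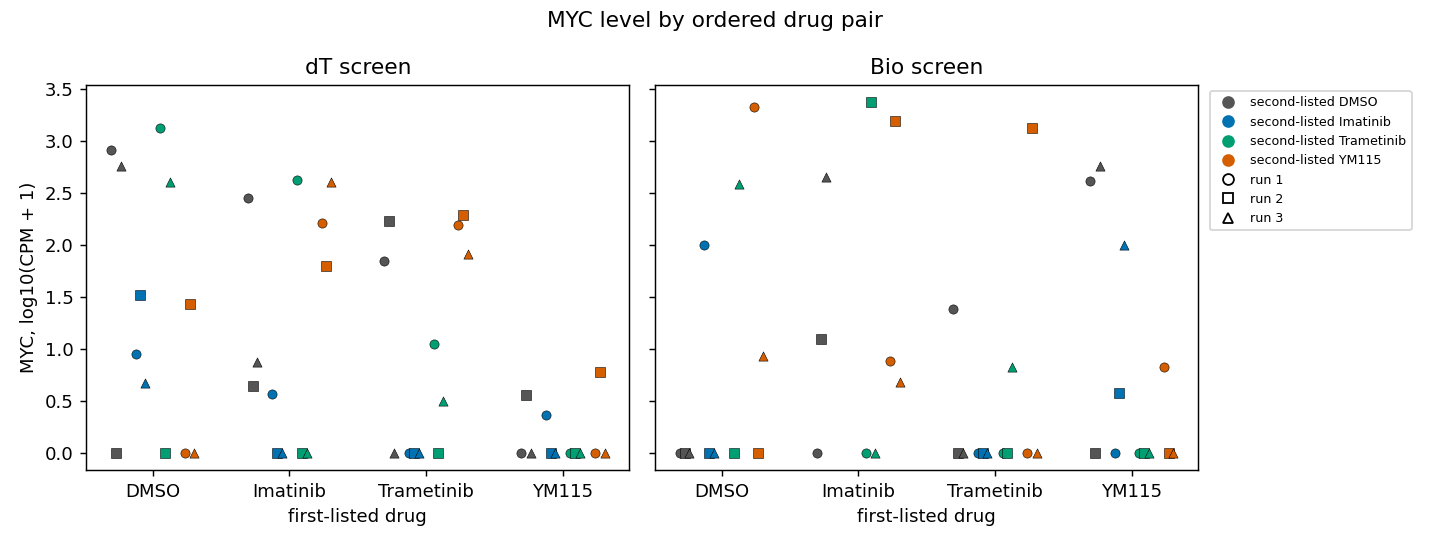
MYC level as log10(CPM + 1) in each passing in-screen library of the dT (left) and Bio (right) screen, grouped by first-listed drug (horizontal axis) and coloured by second-listed drug, with 1 marker shape per run. In dT all 12 libraries with YM115 first-listed lie at or below 4.95 CPM, whereas in Bio they reach 570 CPM.

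In Bio the levels of MYC overlapped between the orders of YM115 in all 3 pairs. With YM115 first-listed it was counted in 5 of 12 libraries and reached 93 counts (570 CPM), with a mean of 90.8 ± 192 CPM. DMSO_YM115 had 462, 0 and 1 counts against 92, 0 and 93 in YM115_DMSO, and Trametinib_YM115 had 0, 583 and 0 against 0, 0 and 0. Imatinib_YM115 had 3, 280 and 1 against 0, 1 and 13 in YM115_Imatinib (528 ± 905 and 34.2 ± 56.9 CPM). The mean of MYC was thus higher with YM115 second-listed in all 3 Bio pairs, as in dT, each time through 1 library far above its replicates. None of 3 genes was called for position in Bio (21.1% of genes called, adjusted p of MYC 0.562), with 0 at unadjusted p under 0.05 and 0 under DESeq2. The single terms of imatinib, trametinib and YM115 called 0 of 3 genes (5.59%, 8.14% and 2.7% of genes called), also at unadjusted p under 0.05 and by DESeq2. The exact permutation gave a difference of -0.998 in mean log2 CPM (p = 0.55). Position by screen, tested in 1 fit, gave an adjusted p of 0.427 for MYC and called 0 of 7 genes (17.9% of genes called), so the difference between the screens was not shown. At unadjusted p under 0.05 that fit had 0, and under DESeq2 0.

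FBL, the methyltransferase gene, ran the other way to MYC in the same dT pairs. It had 1, 5 and 0 counts in Imatinib_YM115 and 23, 177 and 136 in YM115_Imatinib, for means of 5.72 ± 7.43 and 254 ± 211 CPM. It had 10, 1 and 0 counts in Trametinib_YM115 and 23, 87 and 33 in YM115_Trametinib, for means of 9.66 ± 14.3 and 109 ± 92.8 CPM. MYC and FBL were the 2 genes whose levels did not overlap between orders, of 8 counted in the imatinib pair (3.34% of genes) and of 9 in the trametinib pair (3.9%). In DMSO_YM115 the H/ACA gene NHP2 was at 0 and did not overlap its level in YM115_DMSO (14.3 ± 18.7 CPM), which made 1 of 8 genes (5.06%). None of the 10 genes separated in the other 3 dT pairs, where 4.48% (DMSO and imatinib), 6.07% and 3.7% of genes did. With 3 libraries against 3, an exact permutation test cannot go below 0.10, so no single pair was tested. Over all dT libraries the YM115 position term did not pass for FBL (log2 coefficient 1.40 toward YM115 first-listed, SE 0.82, adjusted p = 0.398) or for NHP2 (1.33, SE 0.98, adjusted p = 0.539). As for MYC, the log2 difference between orders is 2 times the coefficient.

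Bio had separations of another gene. NCL had 0, 3 and 36 counts in DMSO_YM115 and 508, 249 and 218 in YM115_DMSO (93.3 ± 151 and 1492 ± 710 CPM), 1 of 8 genes (2.6%). In the trametinib pair NCL ran the opposite way, with 614, 1168 and 199 counts in Trametinib_YM115 and 0, 1 and 16 in YM115_Trametinib (1668 ± 942 and 36.4 ± 60.7 CPM), 1 of 8 genes (4.43%). The other 3 Bio pairs with both orders had 0 (2.53%, 3.43% and 2.68% of genes). Over all Bio libraries the YM115 position term of NCL did not pass (log2 coefficient 1.16 on the same scale, SE 1.42, adjusted p = 0.791). None of the 10 genes separated the same pair in both screens.

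Over all ordered pairs, 0 of 7 genes differed in dT (0.303% of genes called), with MYC at an adjusted p of 0.0620 and NPM1 at 0.0748, and 2 at unadjusted p under 0.05. DESeq2 called 1, which was MYC. In Bio 2 of 7 genes were called, NCL (adjusted p = 0.0101) and MYC (0.0419), where 22.9% of genes were called, so the share was near the background. NCL had 459, 215 and 154 counts in Bio DMSO_DMSO, but 0, 0 and 4 in DMSO_Imatinib and 0, 1 and 0 in Trametinib_DMSO. Those levels were 2445 ± 1357, 8.26 ± 14.3 and 1.12 ± 1.95 CPM. The NCL call was absent under DESeq2, when genes had to be counted in 50% of libraries, and without run 1 or run 2, and that of MYC was kept in 2 of 8 alternatives and was lost under DESeq2, with no low-count filter (adjusted p = 0.0821), with all in-screen libraries (0.106) and without any single run.

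The separate DMSO controls, labelled without a drug pair, were compared with the in-screen pair DMSO_DMSO. In dT, FBL had 83, 72 and 90 counts in the separate controls and 0, 0 and 0 in DMSO_DMSO. Its level pooled over the separate controls was 46.3 times a floor of 3 counts over the in-screen group. That floor covers counting error only, and levels differed widely between replicate libraries, so such ratios are not minimum differences. NPM1 had 12, 4 and 29 against 0, 0 and 0, a pooled level 8.5 times the floor. DKC1 had 13, 5 and 2 against 0, 0 and 0, a pooled level 3.78 times the floor. These 3 genes and NHP2 did not overlap and lay higher in the separate controls, 4 of 10, where 13.7% of genes did so, and 0 lay wholly below (1.02% of genes). MYC overlapped, with 107, 45 and 11 counts against 149, 0 and 114.

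In Bio, MYC had 13, 15 and 9 counts in the separate controls against 0, 0 and 0 in DMSO_DMSO, a pooled level 24.3 times a floor set in the same way. NOP56 and DKC1 reached 12.5 and 5.25 times that floor, with the same limit. MYC, NOP56, DKC1 and NHP2 lay wholly above, 4 of the 8 genes with a count in these libraries, where 16.8% of genes did so. NOP58 and NOP10 had no count in either group. NCL lay wholly below, with 6, 99 and 50 counts against 459, 215 and 154 (760 ± 516 and 2445 ± 1357 CPM), where 0.708% of genes did so. None of the 10 genes passed the test in either screen, 0 of 8 in dT (0.116% of genes called) and 0 of 7 in Bio (0.0432%), with 2 and 3 at unadjusted p under 0.05. DESeq2 called FBL in dT and MYC in Bio. The median log2 fold change of all genes tested was 3.39 in dT and 5.63 in Bio, and that of the members tested 2.73 and 3.41, so most genes tested lay higher in the separate controls. The separate controls also differed in mitochondrial share and genes counted, and the part of these in the values was not tested.

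The screens themselves were compared with counts summed per run. None of 7 genes differed (0.0446% of genes called), with 0 at unadjusted p under 0.05 and 0 under DESeq2. MYC had the smallest adjusted p, with a log2 difference of 1.51 toward Bio (SE 0.76, adjusted p = 0.916), and NCL differed by 0.29 (SE 0.30).

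The other genes of ribosome making and of the MYC network were taken as 6 lists of 208 measured genes: partners of the box C/D and H/ACA particles, RNA polymerase I machinery, the small subunit processome, large subunit assembly, the MYC network and MYC targets outside the nucleolus. Of 99 list genes tested in dT, 3 were called for YM115, all higher (3.03%, against 2.62% of all genes). For imatinib 4 were called, 3 higher and 1 lower (4.04%, against 2.88%), and for trametinib none (1.37% of all genes). In Bio 1 of 42 was called for YM115 (2.38%, against 2.74% of all genes). None of the 42 was called there for imatinib (2.34% of all genes) or trametinib (1.94%). The shares were near those of all genes, so the calls named next were picked by their p-values and do not show a response of the lists.

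Of the list genes called for YM115 in dT, where single calls are weak by the simulation above, NOP14 had the largest log2 fold change (5.60, SE 1.17, adjusted p = 0.0024). NOP14, a factor of the small subunit processome, had counts in 14 of 21 libraries with the drug and 5 of 27 without it (170 ± 303 and 6.68 ± 29.8 CPM). Its call was kept in 8 of 10 alternatives. In Bio NOP14 was counted in 5 of 21 and 2 of 23 libraries. HSPE1, the mitochondrial co-chaperonin and a MYC target, was counted in all 48 dT libraries and averaged 2668 ± 940 CPM with YM115 and 1690 ± 838 without it (log2 fold change 1.04, SE 0.30, adjusted p = 0.0433), a call kept in 3 of 11 alternatives. RRP36, a ribosomal RNA processing factor, was called for YM115 (4.68, SE 1.19, adjusted p = 0.0175) and for imatinib (4.77, SE 1.30, adjusted p = 0.0299). Those calls were kept in 3 of 8 and 4 of 8 alternatives. The other calls for imatinib were POLR1E, a subunit of RNA polymerase I (log2 fold change 4.89), APEX1, a DNA repair endonuclease (5.40), and the processome gene UTP4 (-5.44). They were kept in 2 of 10, 3 of 5 and 4 of 10 alternatives. For APEX1 the edgeR fit of both screens called a different imatinib effect, lower in Bio than in dT (log2 difference -11.4, SE 2.39, adjusted p = 0.0015). UTP4 had at most 6 counts in the 5 of 21 dT libraries with imatinib that held any, and up to 162 in 13 of 27 without it, while in Bio it was counted in 0 of 18 and 7 of 26. NSA2, a large subunit assembly factor, was the 1 call for YM115 in Bio, counted in 9 of 21 libraries with the drug and 2 of 23 without it (adjusted p = 0.0047), whereas in dT it was counted in 17 of 21 and 17 of 27. Its call was kept in 5 of 9 alternatives.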

How the data were processed

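Transcriptomes of K562 cells from 96 in-screen Combi-Seq libraries and 6 separate DMSO controls were analysed. The authors deposited raw counts of reads per gene, whole numbers without normalisation. The submitters' processing notes name STAR 2.4.2a and GRCh38; strand setting, annotation and any use of molecular identifiers are not given in the sources used here. Libraries were grouped by their labels. The members and gene lists were chosen with earlier results of these data known.

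Symbols were matched by Ensembl identifier (24539 genes), and 0 table columns belonged to other samples. CPM is counts per 1000000 counts of a library. In-screen libraries with at least 1000 genes counted and at most 15% of counts from 29 mitochondrial genes were fitted, screen by screen, by the quasi-likelihood F-test of edgeR 4.0.16 (R 4.3.3, TMM factors, genes kept by filterByExpr) over all genes, with Benjamini-Hochberg adjustment and a threshold of 0.05. Run was a block, since the study repeated the whole process for each run and treated the replicate as a batch. Between residuals of 2 libraries, mean r was 0.0244 (dT) and 0.0270 (Bio) within a run and -0.0122 and -0.0135 across runs. Separate controls were fitted with all 51 libraries of a screen, and the screens were compared on counts summed per run over the 14 ordered pairs with 3 passing libraries in both. Permutation tests used log2 CPM with a prior count of 2, two-sided, with 100000 draws or all arrangements. Of 51 replicate pairs per screen, 0 held identical counts. The study describes the 3 runs as biological replicates.

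Depth was 81806 to 780143 counts per passing library, at which most genes had few or no counts. The fits were tested on simulated data for YM115 in dT: on counts this sparse, about as many unchanged as changed genes were called, far more than the threshold allows, so single calls are weak. Named genes were all 10 members, at most 5 called genes per list and comparison (those of the drug comparisons are printed), and the 3 genes closest in level to NCL, FBL and NHP2. Alternatives were DESeq2 1.42.0 as scaling and as test, other low-count filters, no block, each run left out, all libraries, depth as a covariate, portions of a drug, and single-drug pairs. Reads of paralogs or pseudogenes may have been split by the authors' counting. One of the K562 markers is not reported here.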

Additional observations from a re-analysis of the deposited data

How the results depend on the processing

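Keeping all in-screen libraries changed nothing to fit in dT, where all had passed, and is not counted there. Of 230 counts of called members under alternatives, 201 stayed within 1.5 times the main count. The 2 members called over all ordered pairs in Bio became 0 with a filter on a count in at least 50% of libraries, 0 by DESeq2, 1 with no low-count filter, 5 with no replicate block, and 0 to 1 with a run left out. The 0 in dT became 1 by DESeq2, 1 with no low-count filter, 1 with no replicate block, and 0 to 1 with a run left out. DESeq2 also gave 1 in place of 0 for the separate controls in dT and in Bio, for drug by screen with imatinib and with trametinib, and for imatinib in Bio. The 1 member called for YM115 in dT, NPM1, became 0 with the 50% filter, no low-count filter, no replicate block, portions of each drug and single-drug conditions only, and 0 with any run left out. The 1 member called for position in dT, MYC, became 0 to 1 with a run left out. The replicate block moved no other count of members by over 1.5 times. The cause of these moves was not tested. Over alternatives the calls among all genes ranged from 0 to 3458 over all ordered pairs in Bio, from 20 to 1432 for position in dT and from 0 to 503 for YM115 in dT. Of the fitted differences, BRIX1 (drug by screen, trametinib) ran from -0.46 to 5.42 with a run left out and changed sign without run 2, and 82 of 865 values of the members did, none of them called ones. Under the within-run permutation the NPM1 difference for YM115 in dT was 0.43 on the log2 CPM scale and no longer past the threshold. With at least 3 counts asked for, 13 of 40 percents of libraries moved beyond their interval, and leaving mitochondrial counts out of CPM moved 1 of 40 levels, FBL in the separate dT controls (357 CPM). Of the counts above 0 in passing libraries, 26.2% in dT and 30.5% in Bio were single counts, and levels that rest on them have little precision.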

Other observations

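The genes whose levels followed those of NCL most closely over the 48 dT libraries were COMMD4 (Spearman's rho 0.49), STYXL1 (0.48) and RAB2A (0.47), out of 2186 candidates. For FBL they were KDELR1 (0.44), DBNL (0.43) and PSMB2 (0.40), and for NHP2 they were GTF3A (0.43), MEA1 (0.40) and ST13 (0.40). Over the 44 Bio libraries the same pairs had rho between -0.09 and 0.29, the highest for FBL and KDELR1. These values describe libraries that share runs and depth, and none was tested.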
